A study of Mus musculus with 16 samples.

Results

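The 6 Fc receptor genes *Fcgr1*, *Fcgr3*, *Fcgr4*, *Fcer1g*, *Fcgr2b* and *Fcgrt* were followed across graft-derived and host brain macrophages of mouse bone marrow chimeras. They were chosen by name, and all 6 of the 6 names were found among the 24411 genes of the table. Their protein products bind the constant part of IgG or carry its signal. All mice were wild-type C57BL/6J recipients carrying CD45.2 that had been irradiated (950 cGy) and had received congenic wild-type bone marrow carrying CD45.1. Engrafted cells were sorted as Ly6C/G-negative, CD11b-positive, CD45.1-low cells and host microglia as the matching CD45.2-low cells, and both came from the same brain. Of 8 mice, 4 (mice 1 to 4) had received 2.5 mg/kg lipopolysaccharide (LPS, a bacterial endotoxin) by peripheral injection and their cells were isolated 12 h later, and the other 4 (mice 5 to 8) were not injected. This gave 16 RNA-seq libraries in 4 groups of 4: graft control, host control, graft LPS and host LPS. The study's text gives 9 months between transplantation and challenge and recipients 6 weeks old at transplantation, whereas the labels allow 3.5 or 9 months. Host cells had been exposed to the irradiation and engrafted cells had not, so origin and irradiation cannot be told apart. The uninjected mice do not separate LPS from the injection itself.

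Receptors for the Fc part of IgG let macrophages sense antibody-coated material. *Fcgr1* encodes the high-affinity receptor, and *Fcgr3* and *Fcgr4* encode activating receptors of lower affinity. All 3 depend on the common gamma chain encoded by *Fcer1g*, whose tail carries a tyrosine activation motif that recruits the kinase Syk. *Fcgr2b* encodes the inhibitory receptor, whose own tail carries a single tyrosine inhibition motif that recruits phosphatases such as SHIP1, and the balance between the activating receptors and *Fcgr2b* sets the threshold of the response to immune complexes. *Fcgrt* encodes the heavy chain of the neonatal Fc receptor, which pairs with beta-2-microglobulin, binds IgG in acidic endosomes and returns it to the cell surface.

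The difference between the activating and the inhibitory signal lies in short coding stretches, shown here as background. The results below are read counts per gene, and signalling was not measured. In *Fcer1g* the activation motif was found at codons 65 to 79 of 86, on the minus strand of chromosome 1 between 173160020 and 173160203 (NCBIM37, equal to mm9), where an intron interrupts it. In *Fcgr2b* the inhibition motif was found at codons 317 to 322 of 340, on the minus strand at chr1:172891202-172891219. Capitals mark the tyrosine codons, of which the first stretch has 2 and the second has 1.
Fcer1g activation motif: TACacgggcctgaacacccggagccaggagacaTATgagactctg
Fcgr2b inhibition motif: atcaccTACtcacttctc

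Of the genes, 4 lie close together on chromosome 1 of mm9: *Fcgr2b* (NM_001077189, 172890689 to 172906202, minus strand), *Fcgr4* (NM_144559, 172949057 to 172959892, plus strand), *Fcgr3* (NM_010188, 172981300 to 172989534, minus strand) and *Fcer1g* (NM_010185, 173159703 to 173164480, minus strand). *Fcgr2b* and *Fcgr4* are 42855 bases apart, and *Fcgr4* and *Fcgr3* are 21408 bases apart. *Fcgr1* (NM_010186) lies on chromosome 3 from 96086832 to 96097892 on the minus strand, and *Fcgrt* (NM_010189) on chromosome 7 from 52348363 to 52359192 on the minus strand. No other row of the table overlapped any of the 6, although the GENCODE annotation places a U1 small nuclear RNA inside *Fcgr4* on its strand. *Fcgr2b* and *Fcgr3* are related in sequence: 166 of the 1554 windows of 50 bases in the longest *Fcgr2b* transcript (10.7%) also occur in *Fcgr3*, and the same 166 make up 12.8% of the 1298 windows of *Fcgr3*. None of these shared windows lies in the last 300 bases of either transcript, where a library primed at the poly(A) tail collects most reads, and the other 4 genes shared no such window with another protein-coding gene. By the paper's methods, only uniquely mapped reads were kept, so reads fitting both genes equally well would have been left out. How many reads this removed is not given.

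The upstream windows of 3 genes with the clearest LPS differences, *Fcgr4*, *Fcgr3* and *Fcgr2b*, are printed from RefSeq (GRCm38.p6), each as the 250 bases before the annotated start, 5′ to 3′ on the gene's strand. All 6 genes matched the promoter table, with 7 windows because *Fcgr3* has a pair of annotated starts. The 4 patterns were searched on both strands: the interferon-stimulated response element GAAANNGAAA, the gamma-activated site TTCNNNGAA, the core bound by the macrophage factor PU.1 (GAGGAA), and NF-κB by name. Capitals mark a match, and the patterns did not overlap each other in these windows. Of all 32851 windows of the same length, 2.98% held the response element, 7.02% the gamma-activated site, 23.3% the PU.1 core and 7.25% the NF-κB pattern.
Fcgr4 (chr1:171018676-171018925, plus strand): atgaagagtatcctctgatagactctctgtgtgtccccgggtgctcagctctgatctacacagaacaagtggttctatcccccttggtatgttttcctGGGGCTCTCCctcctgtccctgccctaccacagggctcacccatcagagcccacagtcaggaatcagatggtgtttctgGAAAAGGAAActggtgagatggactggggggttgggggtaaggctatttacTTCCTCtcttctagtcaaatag
Fcgr3 (chr1:171059395-171059644, minus strand): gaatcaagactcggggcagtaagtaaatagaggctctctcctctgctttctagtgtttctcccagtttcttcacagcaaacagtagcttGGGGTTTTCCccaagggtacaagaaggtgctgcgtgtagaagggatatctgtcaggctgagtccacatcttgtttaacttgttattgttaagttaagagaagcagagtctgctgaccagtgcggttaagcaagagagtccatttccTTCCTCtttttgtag
Fcgr2b (chr1:170976072-170976321, minus strand): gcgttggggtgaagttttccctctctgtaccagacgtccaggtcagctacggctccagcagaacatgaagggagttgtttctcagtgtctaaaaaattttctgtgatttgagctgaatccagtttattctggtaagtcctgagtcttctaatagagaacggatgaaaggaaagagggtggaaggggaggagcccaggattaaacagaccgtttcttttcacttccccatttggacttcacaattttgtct
The *Fcgr4* window held an NF-κB match, a response element 73 to 64 bases before the start and a PU.1 core 22 to 17 bases before it. The *Fcgr3* window held an NF-κB match and a PU.1 core, and that of *Fcgr1* a gamma-activated site 109 to 101 bases before the start and a PU.1 core. The windows of *Fcgr2b*, *Fcer1g* and *Fcgrt* held none of the 4 patterns. These matches describe letters only.

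Reads assigned to genes numbered 395283 to 1203597 per library (median 820588), so that 3 reads, the limit a count of 0 allows, stood for 2.39 to 8.41 CPM (read counts scaled to a common library size). All 6 genes were well above this floor in every library, with 21 to 4797 reads. The summed CPM of 7 microglia markers was 20090 to 22640 in host controls and 12390 to 14070 in graft controls, and 9901 to 11160 and 4535 to 5746 after LPS, and *Sall1* averaged 321 CPM in host controls against 17.3 in graft controls. Genes of perivascular macrophages summed to 797 to 1175 CPM in engrafted cells and 20.5 to 37.8 in host cells. Markers of other blood cells also had reads in the engrafted libraries. The 5 monocyte markers summed to 162 to 283 CPM in graft controls and 886 to 1887 in graft LPS but at most 23.5 in host cells. The 8 neutrophil markers summed to 259 to 1150 and 24.4 to 461 CPM, against at most 15.95 in host cells. The paper reports *Ccr2*, which is on the monocyte list, in engrafted macrophages, and which cells carried these reads was not tested. Of a list of 5 markers of B cells, a cell type that uses *Fcgr2b*, the summed level was 15.9 to 74.2 CPM: *Cd79a* and *Pax5* were at 0 in all 16 libraries, *Ms4a1* had reads in engrafted cells only (at most 2 per library), and *Cd79b* had 5 to 53 reads in every library, with means of 53.7 and 43.6 CPM in graft and host controls and 20.7 and 20.2 CPM after LPS. In bulk samples such as these, fewer cells of a type and less RNA per cell cannot be told apart.

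Comparisons were called where edgeR's quasi-likelihood test gave a Benjamini-Hochberg adjusted p below 0.05 over all genes and a difference above 2-fold. All 6 genes passed the filter on low counts in every comparison. Without LPS, 1 of the 6 was called between graft and host, *Fcgr3*, lower in the graft, where 4.73% of all 8042 genes tested were called lower and 6.25% higher. With LPS, *Fcgr2b* was called higher and *Fcgrt* lower in the graft, where 6.73% of 7843 genes were called higher and 4.34% lower. Higher genes made up 60.8% of these calls, and 48.7% when libraries were scaled by their totals alone, which moved the median log2 difference of all genes from −0.014 to −0.162. LPS raised 4 of the 6 in engrafted cells (*Fcgr4*, *Fcgr2b*, *Fcgr3* and *Fcer1g*) and lowered none, against 10.2% of 7609 genes called higher and 11.3% lower. In host microglia it raised *Fcgr4* and *Fcgr3* and lowered none, against 7.66% of 8238 genes called higher and 10.4% lower. The response to LPS differed between the populations for 1 gene, *Fcgr2b*, by the interaction over all 16 libraries, where 2.45% of 8847 genes were called with a more positive response in the graft and 2.5% with a more negative one. The 5 comparisons share libraries with each other.

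The median log2 difference of the 6 genes was −0.31 between graft and host without LPS and −0.17 with LPS, against 0.02 and −0.014 over all genes. For the response to LPS it was 1.22 in engrafted cells and 0.67 in host microglia, against −0.0079 and 0.01 over all genes. Libraries of the groups compared did not overlap for 4 of the 6 genes between graft and host without LPS (26.6% of all genes), for 3 with LPS (20.6%), for 5 with LPS in the graft (35%) and for 4 with LPS in the host (35.7%).

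**Figure D1:**
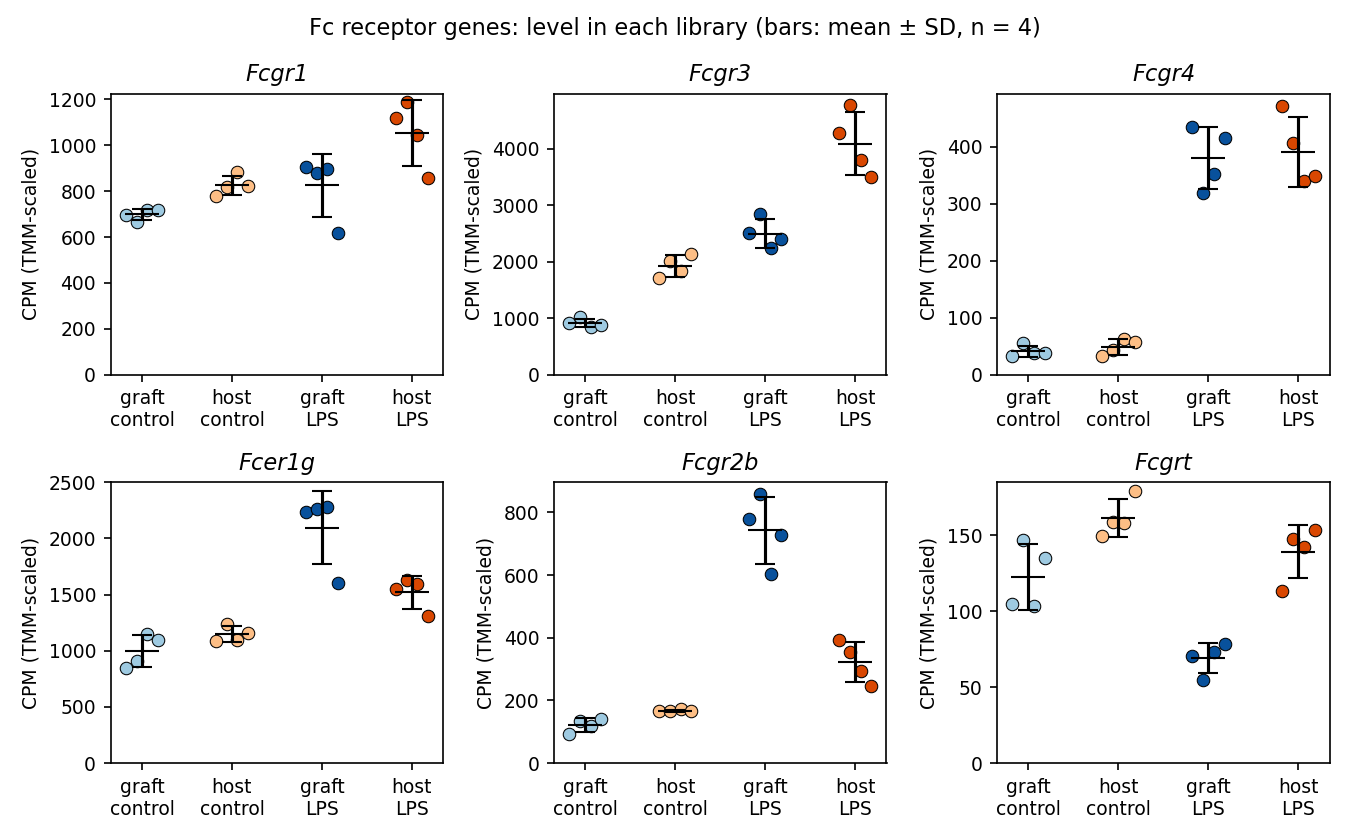
Level of each of the 6 Fc receptor genes in CPM (linear axis from 0) in the 4 groups, with 1 point per library and the mean ± SD of 4 libraries as bars. *Fcgr4* stood near 40.8 to 49.0 CPM in controls and 380 to 391 after LPS in both populations, whereas *Fcgr2b* reached a mean of 743 in the challenged graft and 323 in the challenged host.

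*Fcgr4* showed the largest LPS response of the 6 in both populations, and the graft and the host reached similar levels. In graft controls it stood at 32.2, 55.6, 37.7 and 37.8 CPM (mice 5 to 8; 40.8 ± 10.2, SD, n = 4) and in host controls at 32.2, 43.7, 63.0 and 57.2 CPM (49.0 ± 13.8, n = 4). After LPS it stood at 435, 318, 353 and 415 CPM in the graft (mice 1 to 4; 380 ± 54.2, n = 4) and at 471, 406, 339 and 348 CPM in the host (391 ± 61.2, n = 4). Every challenged library lay above every control library, and graft and host overlapped at both stages. The log2 difference with LPS was 3.19 (SE 0.21, edgeR adjusted p = 6.63e-10) in engrafted cells and 2.95 (SE 0.19, adjusted p = 6.94e-11) in host microglia, and it ranked 142nd of 7609 and 124th of 8238 genes by size. The responses differed by 0.22 (95% interval −0.38 to 0.83, adjusted p = 0.742), and graft and host differed after LPS by −0.016 (95% interval −0.43 to 0.39, adjusted p = 0.972).

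*Fcgr3*, the activating receptor that mouse microglia are known to carry at rest, was lower in engrafted cells than in host microglia of every mouse. In graft controls it stood at 918, 1017, 852 and 873 CPM (mice 5 to 8; 915 ± 73.2, n = 4), and in host controls at 1706, 2020, 1830 and 2131 CPM (1922 ± 190, n = 4). After LPS it stood at 2513, 2840, 2238 and 2400 CPM in the graft (mice 1 to 4; 2498 ± 255, n = 4) and at 4273, 4783, 3810 and 3504 CPM in the host (4093 ± 558, n = 4). The 4 groups did not overlap, in the order graft control, host control, graft LPS and host LPS.
Without LPS the graft stood at 49.5% of the host (log2 −1.01, SE 0.11, adjusted p = 4.76e-08). The fold sat at the 2-fold limit: the log2 difference was −0.99 without host mouse 6, −0.98 without graft mouse 7 and −0.97 without host mouse 8, which ends the call on size, with adjusted p at most 1.67e-06. With LPS the graft stood at 62.1% of the host (log2 −0.69, SE 0.18, adjusted p = 0.0103), within the 2-fold limit. LPS raised *Fcgr3* by 1.41 on the log2 scale in the graft (SE 0.17, adjusted p = 1.63e-06) and by 1.08 in the host (SE 0.14, adjusted p = 3.06e-06), and the difference of 0.32 between the responses had a 95% interval of −0.088 to 0.74 (adjusted p = 0.403).

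*Fcgr1*, the high-affinity receptor, was not called in any comparison. It stood at 698, 664, 718 and 716 CPM in graft controls (mice 5 to 8; 699 ± 24.9, n = 4) and at 780, 817, 881 and 824 CPM in host controls (826 ± 41.8, n = 4). After LPS it stood at 905, 880, 895 and 620 CPM in the graft (mice 1 to 4; 825 ± 137, n = 4) and at 1120, 1190, 1044 and 857 CPM in the host (1053 ± 144, n = 4). The control libraries of graft and host did not overlap, whereas the challenged ones did, and within each of the 8 mice the graft had the lower value, at 72.3% to 89.5% of the host. The log2 difference with LPS was 0.20 in the graft (95% interval −0.16 to 0.56, adjusted p = 0.377) and 0.34 in the host (95% interval 0.048 to 0.63, adjusted p = 0.0583), so that a response the size of that of *Fcgr3* lies outside both intervals.

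*Fcer1g*, the signalling chain of these receptors, rose with LPS in the graft. It stood at 847, 905, 1147 and 1092 CPM in graft controls (mice 5 to 8; 998 ± 144, n = 4) and at 1088, 1240, 1094 and 1160 CPM in host controls (1145 ± 71.3, n = 4). After LPS it stood at 2237, 2261, 2279 and 1606 CPM in the graft (mice 1 to 4; 2096 ± 327, n = 4) and at 1547, 1630, 1597 and 1308 CPM in the host (1521 ± 146, n = 4). Graft mouse 4 lay far below the other 3 challenged grafts, and in mouse 4 the host value was the lowest of its group too. The graft library of mouse 4 was also the shallowest of the 16.
The log2 difference with LPS was 1.03 in the graft (SE 0.18, adjusted p = 0.00013) and 0.40 in the host (SE 0.14, adjusted p = 0.0238, under the 2-fold limit). The difference between these responses was 0.63 (95% interval 0.19 to 1.06, adjusted p = 0.0808) and did not pass. The graft call rests on size: without graft mouse 3 of the LPS group the value was 0.999, without graft control mouse 5 it was 0.95 and without graft control mouse 6 it was 0.99, all just under the limit. After LPS the graft exceeded the host in 4 of 4 mice, by 1.23 to 1.45 times, against 1 of 4 control mice, although the group test gave log2 0.48 (SE 0.18, adjusted p = 0.0761) and the libraries overlapped. With the mouse as replicate block the log2 difference was 0.48 with an adjusted p of 0.0422, and over all 16 alternatives the adjusted p ran from 0.0144 to 0.253; none reached the 2-fold limit.

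*Fcgr2b*, the inhibitory receptor, was the only one of the 6 whose graft and host libraries separated in opposite directions without and with LPS. It stood at 93.7, 135, 118 and 142 CPM in graft controls (mice 5 to 8; 122 ± 21.5, n = 4) and at 165, 167, 171 and 165 CPM in host controls (167 ± 2.86, n = 4). After LPS it stood at 780, 859, 605 and 729 CPM in the graft (mice 1 to 4; 743 ± 106, n = 4) and at 395, 355, 295 and 248 CPM in the host (323 ± 64.9, n = 4). Every graft control lay below every host control, and every challenged graft above every challenged host.
In the graft LPS raised it 5.95-fold (log2 2.57, SE 0.20, adjusted p = 4.81e-09). In the host it was 1.92-fold higher with LPS (log2 0.94, SE 0.16, adjusted p = 4.82e-05), just under the 2-fold limit, and without host mouse 4 of the LPS group the log2 value was 1.04 and was called. The responses differed by 1.63 on the log2 scale (SE 0.25, 95% interval 1.12 to 2.14, adjusted p = 0.000127). Between populations, the graft was at 75.0% of the host without LPS (log2 −0.42, SE 0.14, adjusted p = 0.0327) and at 2.34 times the host with LPS (log2 1.23, SE 0.20, adjusted p = 0.000222). Within mice, the graft was below its own host in 4 of 4 controls (0.566 to 0.859 times) and above it in 4 of 4 challenged mice (1.98 to 2.94 times).
The summed level of the 5 monocyte markers moved in the same direction, from 162 to 283 CPM in graft controls to 886 to 1887 in graft LPS. In graft LPS most of that sum was *Ly6c2*, whose protein the sort selected against, and *Plac8*. *Ly6c2* averaged 30.1 CPM in graft controls and 716 CPM in graft LPS, and *Plac8* 20.8 and 405 CPM. *Ccr2* had the highest mean of the 5 in graft controls and went the other way, from 155 to 46.2 CPM. All 5 had reads in both graft groups, although *Vcan* had at most 2 reads per library in graft controls (mean 0.504 CPM, median 0). The part of monocytes in the *Fcgr2b* result was not tested.

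**Figure D2:**
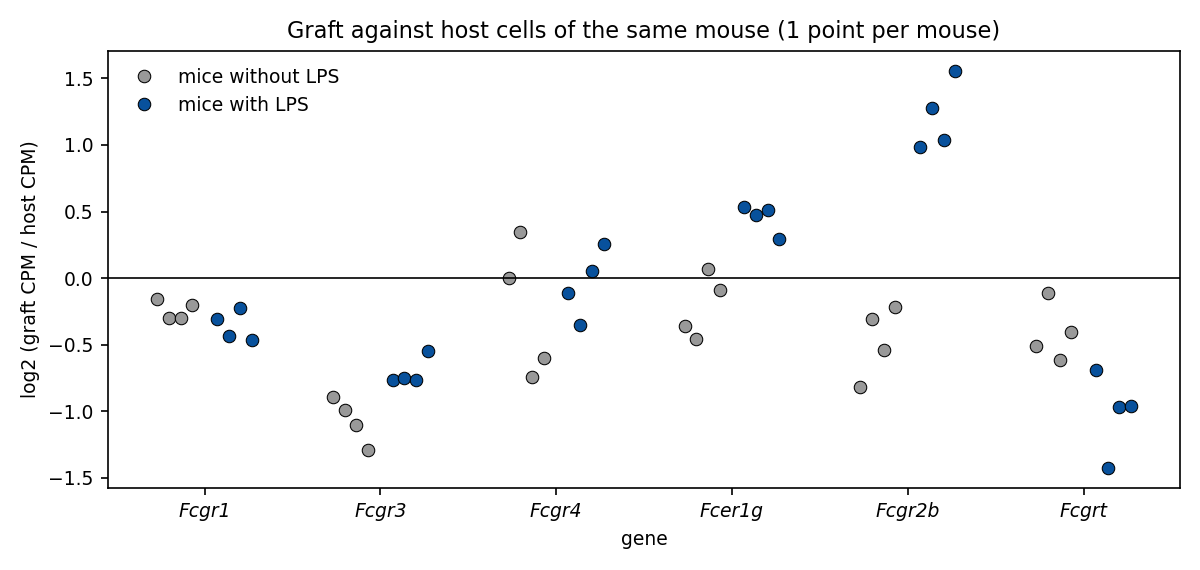
Log2 ratio of the graft CPM to the host CPM of the same mouse for each gene, with 1 point per mouse, grey without LPS and blue with LPS; 0 means equal levels. *Fcgr2b* lies below 0 in 4 of 4 mice without LPS and above 0 in 4 of 4 with LPS, and *Fcgr3*, *Fcgr1* and *Fcgrt* lie below 0 in all 8.

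Within the graft, LPS raised *Fcgr4*, *Fcgr2b*, *Fcgr3* and *Fcer1g*. *Fcgrt*, the neonatal receptor, was instead lower in challenged grafts than in graft controls, by less than 2-fold. It stood at 105, 147, 103 and 135 CPM in graft controls (mice 5 to 8; 122 ± 21.8, n = 4) and at 149, 158, 158 and 179 CPM in host controls (161 ± 12.5, n = 4). After LPS it stood at 70.5, 54.9, 72.9 and 78.5 CPM in the graft (mice 1 to 4; 69.2 ± 10.1, n = 4) and at 114, 148, 142 and 153 CPM in the host (139 ± 17.6, n = 4). Challenged grafts were the lowest libraries of the 16, with 28 to 63 reads.
Without LPS the graft and host differed by −0.35 on the log2 scale (SE 0.14, adjusted p = 0.0731), and with LPS the graft stood at 49.9% of the host (log2 −1.002, SE 0.19, adjusted p = 0.000922). This call sits at the 2-fold limit. With the mouse as replicate block the value was −0.99 (adjusted p = 0.000939) and it was not called, nor was it without graft mouse 2 (−0.89) or without host mouse 2, 3 or 4 (−0.98, −0.99 and −0.95). The log2 difference with LPS was −0.87 in the graft (SE 0.20, adjusted p = 0.00144, under the 2-fold limit) and −0.23 in the host (SE 0.15, adjusted p = 0.241), and the responses differed by −0.66 (adjusted p = 0.101). *B2m*, the partner chain, was not called in any comparison, with means of 4296 and 3527 CPM in graft and host controls and 4448 and 4754 after LPS.

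**Figure D3:**
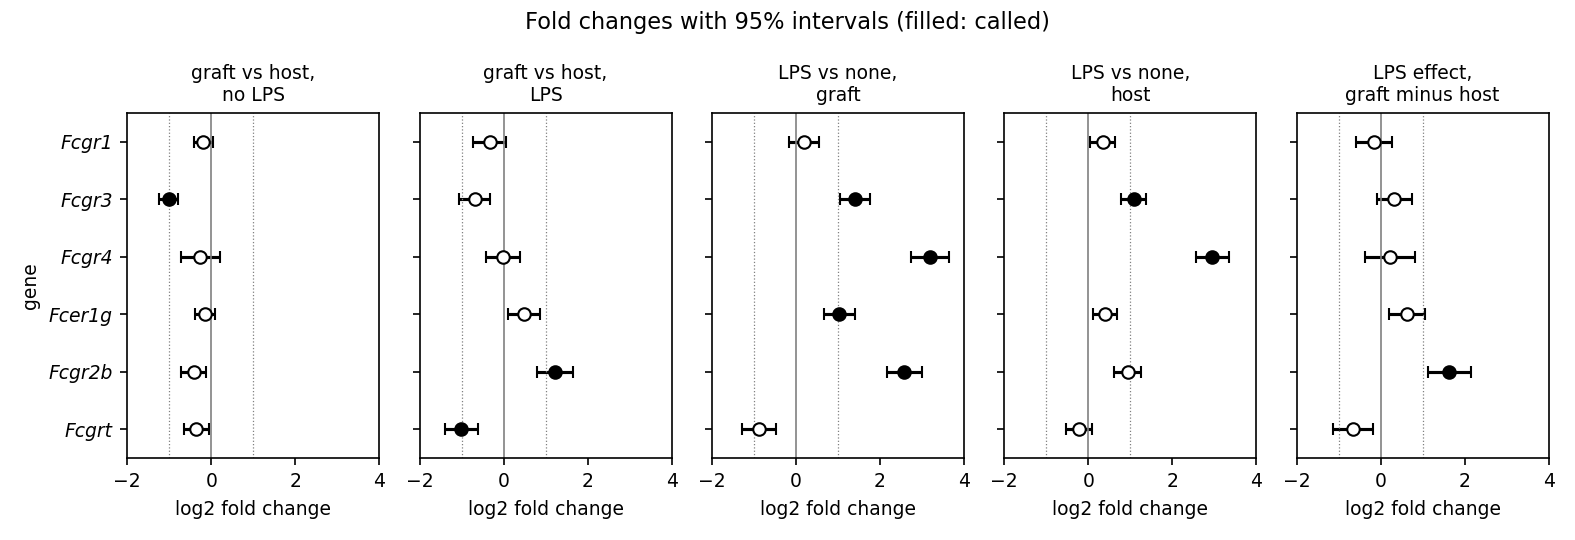
Log2 fold change with its 95% interval for the 6 genes in the 4 comparisons and, at the right, the difference in LPS response (graft minus host); filled points were called and dotted lines mark 2-fold. The *Fcgr2b* interaction of 1.63 is the filled point in the right panel, and the 95% interval of *Fcgr4* there covers 0 (−0.38 to 0.83).

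Reads of each activating receptor were next set against those of *Fcgr2b* in the same library, a ratio that does not depend on how libraries are scaled and that is compared between groups only. The *Fcgr3* to *Fcgr2b* ratio was 6.11 to 9.75 in graft controls, 10.3 to 12.9 in host controls and 10.8 to 14.1 in challenged hosts, but 3.22 to 3.70 in challenged grafts. The *Fcgr1* to *Fcgr2b* ratio was 4.90 to 7.42 in graft controls and 4.70 to 5.13 in host controls, and after LPS it was 0.850 to 1.48 in the graft and 2.84 to 3.54 in the host. The *Fcgr4* to *Fcgr2b* ratio was 0.270 to 0.416 and 0.198 to 0.369 in graft and host controls, and 0.371 to 0.583 and 1.14 to 1.40 after LPS. For all 3 receptors the challenged graft lay below the challenged host with no overlap, by 1.57 (*Fcgr1*), 1.92 (*Fcgr3*) and 1.25 (*Fcgr4*) on the log2 scale. The 3 ratios share the *Fcgr2b* reads and are not separate results.

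**Figure D4:**
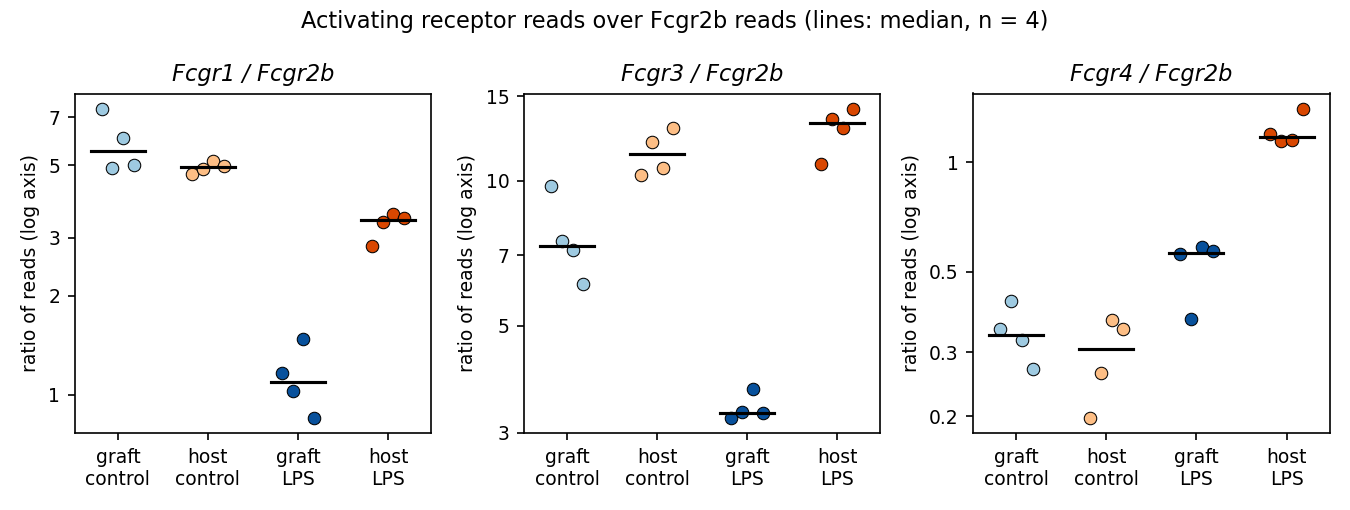
Reads of *Fcgr1*, *Fcgr3* or *Fcgr4* divided by reads of *Fcgr2b* in the same library (log axis), with 1 point per library and the median of 4 as a line. In each panel the challenged grafts lie below the challenged hosts; for *Fcgr3* they span 3.22 to 3.70 against 10.8 to 14.1.

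The same counts for *Fcer1g* gave a *Fcgr1* to *Fcer1g* ratio of 0.386 to 0.405 in challenged grafts, below the other 3 groups (0.626 to 0.824). The challenged graft of mouse 4, low for both genes, had the lowest of these ratios, 0.386, next to 0.389 to 0.405 in the other 3. The *Fcgr3* to *Fcer1g* ratio was 0.743 to 1.12 in graft controls and 1.57 to 1.84 in host controls, and 0.982 to 1.49 and 2.38 to 2.93 after LPS.

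For kinases and adaptors downstream of the activating receptors, of a list of 22 genes, 20 or 21 were tested in each comparison, none was called between graft and host with or without LPS, and the median log2 difference was −0.19 without LPS and 0.09 with LPS. With LPS, 3 were called in the graft and 2 in the host. Lists this short are read against the shares of all genes called (6.25% higher and 4.73% lower between graft and host without LPS, 6.73% and 4.34% with LPS, 10.2% and 11.3% with LPS in the graft, 7.66% and 10.4% in the host), and the counts in this list and the lists that follow are descriptions that set none of them apart from other genes. *Fgr*, a Src-family kinase, rose with LPS in both populations, from a mean of 10.6 to 216 CPM in the graft (log2 4.31, adjusted p = 2.31e-10) and from 21.0 to 221 CPM in the host (log2 3.42, adjusted p = 5.2e-11). *Blnk*, an adaptor of B cells and macrophages, fell from 291 to 77.3 CPM in the graft (log2 −1.98) and from 322 to 86.5 CPM in the host (log2 −1.89). *Rac2*, a small GTPase of phagocytes, rose in the graft (log2 1.71, adjusted p = 1.72e-06), was 0.65 in the host (adjusted p = 0.0142), and the difference of 1.05 between them was called (adjusted p = 0.0415). The other genes of the list, *Syk* among them, were not called in any comparison.

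Among 8 genes of inhibitory signalling, the adaptor *Dok3* was higher in graft than in host controls (690 ± 9.03 against 303 ± 65.4 CPM, n = 4 each; log2 1.25, adjusted p = 9.78e-08) and rose with LPS in the host to 1082 CPM (log2 1.83). In the graft it stood at 1401 CPM after LPS (log2 0.98, adjusted p = 8.35e-05, just under the 2-fold limit). *Dok2*, a related adaptor, averaged 10.3 CPM in graft controls and 121 CPM in challenged grafts (log2 3.51, adjusted p = 2.28e-08), against 0.971 and 9.55 CPM in the host. The challenged graft was 12.5-fold above the challenged host (adjusted p = 7.49e-08). *Dok2* did not pass the filter between controls or for LPS in the host, and its interaction was not called (log2 0.48, SE 1.48, adjusted p = 0.907). In the host, the phosphatase genes *Ptpn11* and *Inppl1* were called with LPS in opposite directions (log2 1.27 and −1.36). *Inpp5d*, which encodes SHIP1, the phosphatase that binds *Fcgr2b*, was not called in any comparison.

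Of 14 receptors or chains that pair with the gamma chain or do its work, 3 to 6 passed the filter. *Cd300lf*, a receptor of myeloid cells, rose with LPS in both populations, from 14.7 to 432 CPM in the graft (log2 4.84) and from 20.0 to 686 CPM in the host (log2 5.05). The C-type lectin receptors *Clec4e*, *Clec4d* and *Clec4n* averaged 341, 270 and 82.8 CPM in challenged grafts against 5.12, 18.3 and 4.10 CPM in challenged hosts, and each was called. *Clec4n* was already called higher in graft than in host controls (log2 4.61, SE 0.63, adjusted p = 2.53e-06). It had 8 to 15 reads per library in graft controls and 0 to 2 in host controls, so the size of this difference is uncertain. The interaction was called for *Clec4e* and *Clec4d* (log2 5.09, SE 1.3, and log2 3.06, SE 0.74) but not for *Clec4n* (log2 −0.36, adjusted p = 0.793). Control counts were near 0: *Clec4e* had 0 to 4 reads per library in both populations. *Clec4d* had 1 to 5 in graft and 0 to 4 in host controls. Neither passed the filter between controls or for LPS in the host, so the sizes of their interactions are uncertain. *Cd300c2* fell with LPS in the graft (log2 −1.77) and was lower there than in the host with LPS (log2 −1.19). *Tyrobp*, the other signalling chain of this kind, was not called in any comparison, at means of 2034 to 2686 CPM.

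Of 15 further Fc receptor and Fc receptor-like genes 14 were in the table and 2 or 3 passed the filter in each comparison. *Fcrl1* was higher in graft than in host controls (95.5 ± 12.4 against 42.2 ± 3.95 CPM; log2 1.26, adjusted p = 1.72e-06) and fell with LPS to 11.0 CPM in the graft (log2 −3.29) and 7.60 CPM in the host (log2 −2.46). *Fcrls*, a gene of microglia, stood at 2310 and 2337 CPM in graft and host controls, fell with LPS in the graft (1074 CPM, log2 −1.14, adjusted p = 2.34e-05), and stood at 1564 CPM in the challenged host (log2 −0.59, adjusted p = 0.00209, under the limit). *Fcrl5* and *Fcrl6* had no reads in any library.

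In all, 34 rows of the table lay within 50 kb of a member on the genome, and 13 to 15 were tested in each comparison. None was called between graft and host, which with so few tested is not set apart from the shares of all genes called there (6.25% higher and 4.73% lower without LPS, 6.73% and 4.34% with LPS). *Ppox*, near *Fcer1g*, was lower with LPS in both populations (log2 −1.13 in the graft and −1.08 in the host).

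The genes whose 4 group means followed each member most closely, by the root mean square difference of centred log2 means over 8520 genes, were *Mocs1*, *Rnf169* and *Ms4a6d* for *Fcgr4* (0.091, 0.157 and 0.238), *Pkm*, *Tpm4* and *Tubb6* for *Fcgr2b* (0.127, 0.173 and 0.187), and *Peli2*, *Pop1* and *Vapa* for *Fcgr3* (0.089, 0.096 and 0.098). *Pkm*, a glycolytic enzyme, averaged 268 and 317 CPM in graft and host controls and 1312 and 684 CPM after LPS. For *Fcgr1* they were *Arcn1*, *Ssb* and *Rbsn*, for *Fcer1g* *Ndufa12*, *Taf10* and *2310011J03Rik*, and for *Fcgrt* *Hacd3*, *Ids* and *Farp2*, at 0.014 to 0.050. These are likenesses over 4 group means.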

How the data were processed

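RNA was captured from sorted cells by its poly(A) tail and libraries were made by a MARS-seq derivative. Per the labels and the study's methods, the authors aligned reads to mm9 with HISAT (version 0.1.5 in the submitters' processing notes). They kept uniquely mapped reads, per the study's methods, and counted reads over exons with HOMER. They deposited raw read counts per gene and library. From the deposited counts, genes were kept by filterByExpr of edgeR 4.0.16 (minimum count 10, minimum total 15), scaled by TMM and tested with the quasi-likelihood test (prior count 0.125) on the groups compared, or on all 16 libraries for the interaction, in R 4.3.3. P-values were adjusted over all genes tested. CPM used TMM-scaled library sizes; SEs and 95% intervals are those of the log2 fold changes. Counts per library were 395283 to 1203597 and their floors cover counting error only. Replicates were separate mice, and the 24 replicate pairs differed by more than counting noise (chi-square per degree of freedom 1.98 to 8.64). Graft and host libraries with the same number came from the same mouse; the correlation of their deviations was −0.0384 to 0.193 over 8 mice. The fits were checked on simulated data. Alternatives were DESeq2 1.42.0, limma 3.58.1 (trend), other scalings and filters, a replicate block and leaving out each library. Named genes were the 6 members, the called genes of 6 lists and the 3 genes most like each member. The members and lists were chosen with earlier results of these data known. Other samples of the design were not analysed here, and some list genes are not reported here.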

Additional observations from a re-analysis of the deposited data

Results flagged for a closer look

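In the graft LPS group, mouse 4 stood apart for 2 genes by Dixon's gap. *Fcgr1* was at 619.6 CPM there and at 879.6 to 904.9 CPM in the other 3 mice, a gap of 0.911 of the range. *Fcer1g* was at 1606 CPM against 2237 to 2279 CPM, a gap of 0.937 of the range. Of the 24 gene and group combinations, 2 exceeded the critical value for 4 libraries, where chance gives about 1 in 20. This library was the shallowest, with 395283 reads. It also had the highest summed level of 4 red blood cell markers among the challenged grafts, which spanned 2.60 to 4777 CPM. The host library of mouse 4 was the highest of its group too, where the sums spanned 3.99 to 655 CPM. The parts of depth and of red blood cells were not tested. The response of *Fcgr2b* to LPS differed between graft and host by 1.63 on the log2 scale (edgeR interaction over 16 libraries, adjusted p = 0.000127).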

How the results depend on the processing

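The *Fcgr2b* interaction stayed between 1.51 and 1.74 on the log2 scale under 23 alternatives (adjusted p at most 0.00045), and the *Fcgr4* and *Fcgr3* responses to LPS were called under all 15 run in each population. Calls on size near 2-fold were not stable. Of the 6 genes, 2 were called between graft and host with LPS; 1 was called with RLE size factors, with DESeq2, with all 16 libraries in one fit and with the replicate block, where *Fcgrt* gave −0.989, −0.992, −0.9992 and −0.986, and 1 to 2 when a library was left out. Without LPS, 1 was called, and 0 to 1 when a library was left out. The replicate block changed no other call of the 6 genes. The *Fcgr4* difference between graft and host with LPS, −0.016, changed sign when a library was left out (−0.084 to 0.079). The *Fcer1g* response in the graft was 0.96 with library totals, 0.94 with at least 10 reads in every library and 0.96 with limma. Over all genes, no filter gave 1454 calls without LPS (883 as reported) and 1352 with LPS (868), and 10 reads in every library gave 402 and 381, 816 for LPS in the graft (1636), 871 for LPS in the host (1484) and 251 for the interaction (438). The strict filter tests fewer genes; the cause of the other shifts was not tested. Depth limits *Fcgr4* in controls, at 21 to 79 reads, and *Fcgrt*, at 28 to 198 reads.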
